A study of Mus musculus with 3 samples.

Results

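The 10 genes followed here encode cell-surface proteins that are used to describe embryonic stem (ES) cells and their differentiating progeny: Cd24a, Thy1, Gpc3, Prom1, L1cam, Epcam, Cd9, Pecam1, Kit and Icam1. They were picked by symbol, with the results of the comparison below already known, and all 10 were among the 15311 genes of the deposited table and among the 13829 tested. Everything said of them between K3R3 and wild type is therefore a description. In K3R3 cells, 5 of the 10 (Thy1, Prom1, L1cam, Cd24a and Gpc3) were called higher than in wild type, by 1.76 to 3.42 times, as were 2.02% of all genes tested. These 5 stood above both wild-type libraries, as did 33.9% of all genes tested. Epcam, Cd9, Kit, Icam1 and Pecam1, which ES cells also express, lay between 0.63 and 0.92 times the wild-type level, and none of these 5 was called.

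The polyadenylated RNA of mouse ES cells was sequenced in 3 libraries, 1 of K3R3 and 2 of wild type. Cells of the K3R3 group carried a doxycycline-inducible transgene (rtTA system, CMV promoter, 1 µg/ml doxycycline) for the histone variant H2A.Z fused to YFP, with the C-terminal lysines K119, K120 and K123 replaced by arginine. Wild-type cells carried the same kind of transgene with unaltered H2A.Z. Both groups shared sorting for YFP, a lentiviral hairpin against the 3′ UTR of endogenous H2A.Z with blasticidin selection, and growth in serum with LIF on feeder fibroblasts that were left out for the last passage. The labels give the strain as V6.5 (129SvJaexC57BL/6), whereas the protocol names KH2 ES cells as the ones infected. It is not stated whether a line was 1 clone, which of 2 hairpins was used, or whether both wild-type libraries had cultures of their own, so their spread may be technical.

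Surface markers of this kind do varied work. Epcam, Cd9 and Pecam1 are abundant on the pluripotent cells of the early mouse embryo and serve in adhesion and in the organisation of the membrane. Cd24a, Thy1 and Gpc3 are held in the outer leaflet by a glycolipid (GPI) anchor, and together with Prom1 and L1cam they are known from progenitor, neural, mesenchymal or epithelial cells that arise when ES cells differentiate. H2A.Z sits at promoters, including bivalent ones, which carry an activating and a Polycomb mark at once and are held at low output in ES cells. The C-terminal lysines that K3R3 lacks can carry ubiquitin, and the series asks how that modification bears on such poised promoters.

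The libraries held 24718223 counts for K3R3 and 21614693 and 25426228 for wild-type libraries 1 and 2. Levels are given as CPM, counts relative to library size, scaled by TMM, which corrects for differences in composition between libraries, and levels between genes are compared in RPKM, which also divides by gene length. Fold changes are K3R3 over wild type, on the log2 scale with the standard error (SE) of the fit, and "called" means an adjusted p under 0.05 by edgeR's quasi-likelihood test over all genes tested. Across those genes 2.57% were called, 2.02% higher and 0.542% lower. With 1 K3R3 library, the test takes the spread between the wild-type libraries for both groups. That spread follows a trend across genes, so the SE and call of a gene do not rest on its own wild-type gap. In bulk RNA of this kind, fewer cells of a type and less RNA per cell cannot be told apart. Oct4 (Pou5f1), Nanog and 13 more ES cell markers were all among the table's rows, at a summed 5455 CPM in K3R3 and 8074 and 7030 CPM in wild type. H2afz, the gene of H2A.Z, stood at 222 CPM in K3R3 and 219 and 232 CPM in wild type, and since reads of the transgene can count there too, this does not check the hairpin.

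**Figure D1:**
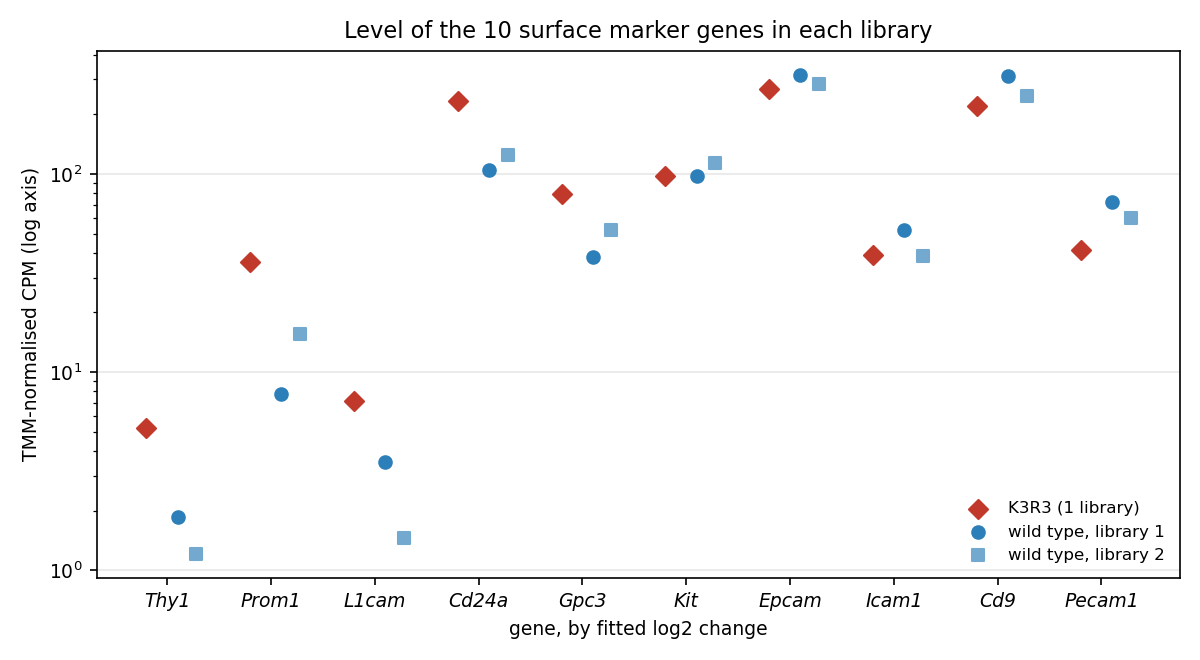
TMM-normalised CPM (log axis) of each gene in the K3R3 library (diamonds) and in wild-type libraries 1 (circles) and 2 (squares), with genes ordered by fitted log2 change. The 5 genes on the left have K3R3 above both wild-type libraries, and Icam1 alone has K3R3 between them.

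Promoter sequences from RefSeq (build GRCm38.p6, whereas the deposited counts rest on mm9) were at hand for 7 of the 10 genes, and not for Cd24a, Thy1 and Pecam1. The core window from 40 to 11 bases before the first listed start is shown for the called L1cam, Gpc3 and Prom1 and for the uncalled Epcam, Cd9, Kit and Icam1, so that the members that were and were not called can be set side by side. Lower case is the plain sequence, 5′ to 3′ on the gene's strand, and capitals mark a GC box (GGGCGG or its complement CCGCCC, the letters bound by Sp1-type factors) or a CCAAT box (CCAAT). The spans are chrX:73880801-73880830 (minus strand) for L1cam, chrX:52613985-52614014 (minus) for Gpc3, chr5:44101747-44101776 (minus) for Prom1, chr17:87635939-87635968 (plus) for Epcam, chr6:125494771-125494800 (minus) for Cd9, chr5:75574947-75574976 (plus) for Kit and chr9:21015900-21015929 (plus) for Icam1.
L1cam: ccgcgcacgctgccCCGCCCgccgccgccg
Gpc3: cccacaaggctCCGCCCcgggCCGCCCcgc
Prom1: ctcacCCAATcactcttgtggtgccctggg
Epcam: cctccaaagacccataaaacccaggtgtgg
Cd9: cgcacatgcgcatagcagctggccgagcgc
Kit: tcgcgcgccgctagtggctctgggggctcg
Icam1: cccggaaagtggccccgacagcaCCGCCCc

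Base make-up varied widely within the called genes. L1cam had 28 G or C bases of 30, with 8 CpG pairs, and Gpc3 had 26 with 4, whereas Prom1 had 18 with 0. Of the uncalled genes Epcam had 16 with 0. Cd9 (21 with 4 CpG), Kit (23 with 5) and Icam1 (23 with 3), also uncalled, lay between Prom1 and L1cam. Over the whole 300 bases of the first listed promoter, Gpc3 had 30 CpG pairs and 4 GC boxes, and Prom1 had 10 CpG pairs and 1 GC box, against a median of 7 CpG pairs over 32851 promoters. Kit, L1cam and Prom1 each had a second listed promoter. That of Prom1 had 4 CpG pairs and 0 GC or CCAAT boxes, and that of L1cam had a CCAAT box. Which start the cells used was not measured. In the first listed promoter all 7 genes had a GC box on either strand, as did 35.7% of all promoters, and Gpc3 and Prom1 had a CCAAT box, as did 37.4%. TATAAA was found in Icam1 alone (13.6% of all promoters) and the E-box CACGTG in Epcam alone (7.15%). Both lay after the listed start, beginning at position 14 in Icam1 and 31 in Epcam.

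Cd24a encodes the heat-stable antigen, a small, heavily glycosylated GPI-anchored protein. It had 6050 counts in K3R3, against 2208 and 3105 in the wild-type libraries, which is 232 CPM against 105 and 125 CPM. K3R3 was above both wild-type libraries, which lay 1.19-fold apart. The fitted log2 change was 1.01 (SE 0.20), or 2.02-fold, and the gene was called. Per length, Cd24a reached 90.4 RPKM in K3R3, close to the 92.3 RPKM of Epcam in the same library, against 41.1 ± 5.48 RPKM in wild type (SD, n = 2). Its rank over all genes was at percentile 96.6 in K3R3 and 90.7 in wild type. Retrotransposed copies of Cd24a are known in the mouse genome, and how reads that match several places were counted is not given in the sources used here.

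Prom1 encodes prominin-1 (CD133), a membrane protein of cell protrusions that marks neural and epithelial progenitors, and its first listed core promoter (shown above) has a CCAAT box. It had 934 counts in K3R3, against 162 and 384 in wild type (35.9 CPM against 7.71 and 15.5 CPM). K3R3 was above both, but the wild-type libraries themselves differed 2.01-fold. The fitted log2 change was 1.63 (SE 0.31) and the gene was called, and it was 2.21 against wild-type library 1 alone and 1.21 against library 2 alone. Only Prom1 and Thy1 among the 10 lay at least 2-fold above both wild-type libraries after 1 CPM was added to each value, a mark reached by 2.10% of the 12761 genes that averaged 1 CPM or more.

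Thy1 encodes a GPI-anchored immunoglobulin-superfamily protein of T cells, neurons and fibroblasts. It had 136 counts in K3R3, against 39 and 30 in wild type (5.22 CPM against 1.86 and 1.21 CPM), and K3R3 was above both. The pooled count ratio was 3.47, with an exact 95% interval of 2.58 to 4.71 that covers counting error only. The fitted log2 change was 1.77 (SE 0.53), the largest of the 10, and the gene was called. Its wild-type libraries could not be told apart by counting error (ratio of library 2 to library 1 0.651, interval 0.391 to 1.08).

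L1cam encodes a neural adhesion molecule of the immunoglobulin superfamily and was, per length, the scarcest of the 10. It had 185 counts in K3R3, against 74 and 36 in wild type (7.11 CPM against 3.52 and 1.45 CPM). The groups did not overlap, yet the wild-type pair was farther apart than for any other member, with library 2 at 0.412 times library 1 (interval 0.269 to 0.622). The fitted log2 change was 1.52 (SE 0.46) and the gene was called. It was 1.00 against wild-type library 1 alone and 2.26 against library 2 alone, so the size of the change rested on which wild-type library was used.

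Gpc3 encodes glypican-3, a GPI-anchored heparan sulfate proteoglycan that tunes growth-factor and Hedgehog signalling. It had 2058 counts in K3R3, against 798 and 1290 in wild type (79.1 CPM against 38.0 and 52.0 CPM). K3R3 was above both libraries, and the wild-type pair differed 1.37-fold. The fitted log2 change was 0.81 (SE 0.24), or 1.76-fold, the smallest of the called members. With DESeq2 the calls of Gpc3, Thy1 and L1cam were lost and those of Cd24a and Prom1 kept, where 0.239% of all genes were called higher.

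**Figure D2:**
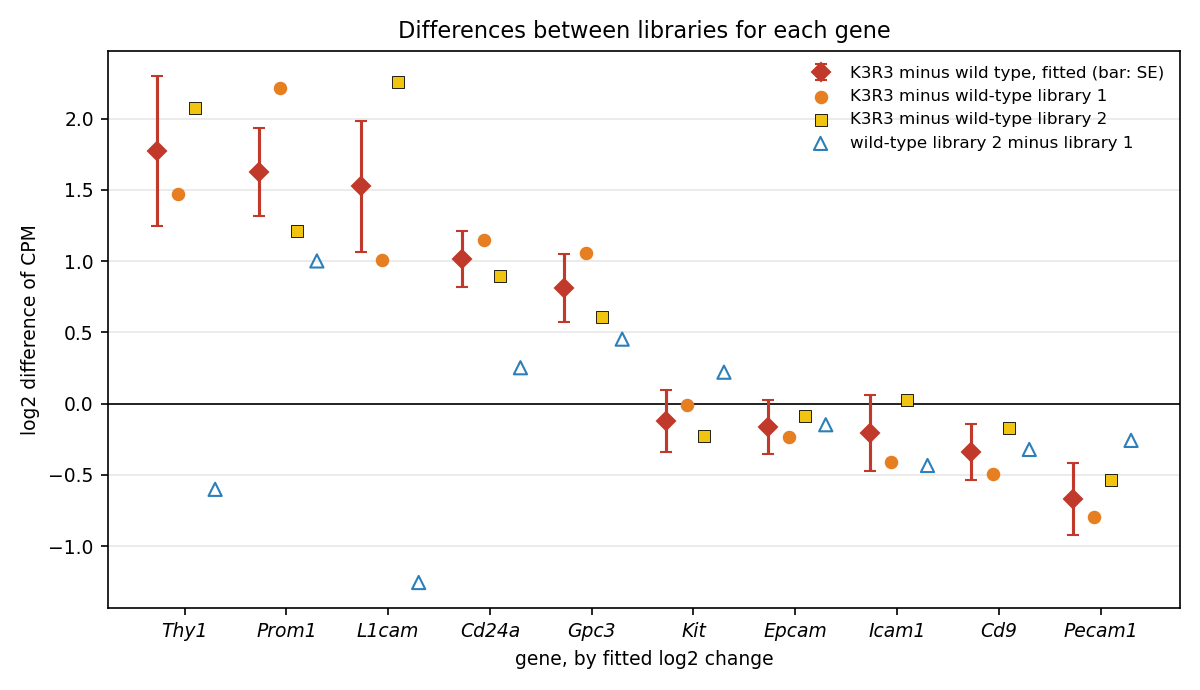
Log2 differences of CPM for each gene: K3R3 minus wild type as fitted (diamonds, bars are the SE), K3R3 minus each wild-type library alone (circles and squares), and wild-type library 2 minus library 1 (open triangles). The triangles lie farthest from 0 for Prom1 (1.00) and L1cam (-1.26), and for L1cam the distance exceeds its K3R3 difference against wild-type library 1 (1.00).

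Epcam encodes an epithelial adhesion molecule that is abundant on ES cells. It stood at 269 CPM in K3R3, against 317 and 286 CPM in wild type, a log2 change of -0.16 (SE 0.19). Cd9, a tetraspanin that organises membrane partners, stood at 221 CPM, against 311 and 249 CPM (log2 -0.34, SE 0.19). Both were below the nearer wild-type library by less than the gap between the wild-type libraries. On the deposited RPKM scale, which is not TMM-scaled, Epcam lay between its wild-type values, at 92.3 RPKM against 98.9 and 90.6 RPKM.

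Pecam1 encodes platelet/endothelial cell adhesion molecule 1, which is found on the inner cell mass and ES cells as well as on endothelium. It had 1078 counts in K3R3, against 1509 and 1490 in wild type, or 41.4 CPM against 71.8 and 60.0 CPM. K3R3 was below both, by more than the distance between the wild-type libraries. The fitted log2 change was -0.67 (SE 0.25), it kept its sign against each library alone (-0.79 and -0.54), and it was not called. Pecam1 was the only member outside the called 5 with an unadjusted p under 0.05, against 1552 of 13829 genes.

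Kit encodes the receptor tyrosine kinase for stem cell factor, known from germ cells and blood progenitors and present in ES cells. It stood at 97.0 CPM in K3R3, against 97.5 and 114 CPM in wild type (log2 -0.12, SE 0.22). K3R3 and wild-type library 1 were next to each other, and scaling to the totals behind the RPKM values gave 0.00081, so no direction can be given. Icam1 encodes a ligand of leukocyte integrins that inflammatory signals induce. It stood at 39.1 CPM in K3R3, between 52.0 and 38.5 CPM in wild type (log2 -0.21, SE 0.27).

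Of the 10 genes, 5 were called higher and 0 lower. K3R3 was above both wild-type libraries for 5, below both for 4 and between them for 1, while over all tested genes these shares were 33.9%, 34.2% and 31.9%. On the RPKM scale 5 were above, 2 below and 3 between. Since the members were chosen with this comparison known, nothing is read from these counts. The wild-type libraries, which give the spread as a trend across genes, differed for 9 of the 10 genes by more than counting error at 95%. This count was not made over all tested genes, so no share can be set beside it. Over all genes these libraries had a chi-square of 24.3 per degree of freedom, above sampling noise. For the 10 genes the log2 difference of the wild-type libraries ran from -1.26 for L1cam to 1.00 for Prom1, with a median of -0.20. These 2 genes were at least 2-fold apart, as were 6.57% of all tested genes. Because the spread in the fit follows the trend, these 2 gaps did not set the SE of L1cam and Prom1.

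Compared per length, the markers spanned a wide range. In wild type the order was Cd9 (152 ± 22.3 RPKM), Epcam (94.7 ± 5.90), Cd24a (41.1 ± 5.48), Kit (13.2 ± 1.56), Pecam1 (12.9 ± 1.50), Gpc3 (12.9 ± 2.96), Icam1 (11.5 ± 2.32), Prom1 (2.01 ± 0.971), Thy1 (0.572 ± 0.165) and L1cam (0.304 ± 0.176; SD, n = 2 each). Kit, Pecam1, Gpc3 and Icam1 did not differ beyond their spread. In K3R3 Cd9 led at 131 RPKM, with Epcam (92.3) and Cd24a (90.4) next, and Gpc3 (24.6) stood above Kit (13.2), Icam1 (10.9), Pecam1 (8.85) and Prom1 (6.77). Thy1 (2.13) and L1cam (0.949) were the lowest, so the 3 scarcest genes in wild type were also the 3 scarcest in K3R3. The rank of Prom1 over all genes was at percentile 61.0 in K3R3 and 41.8 in wild type.

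**Figure D3:**
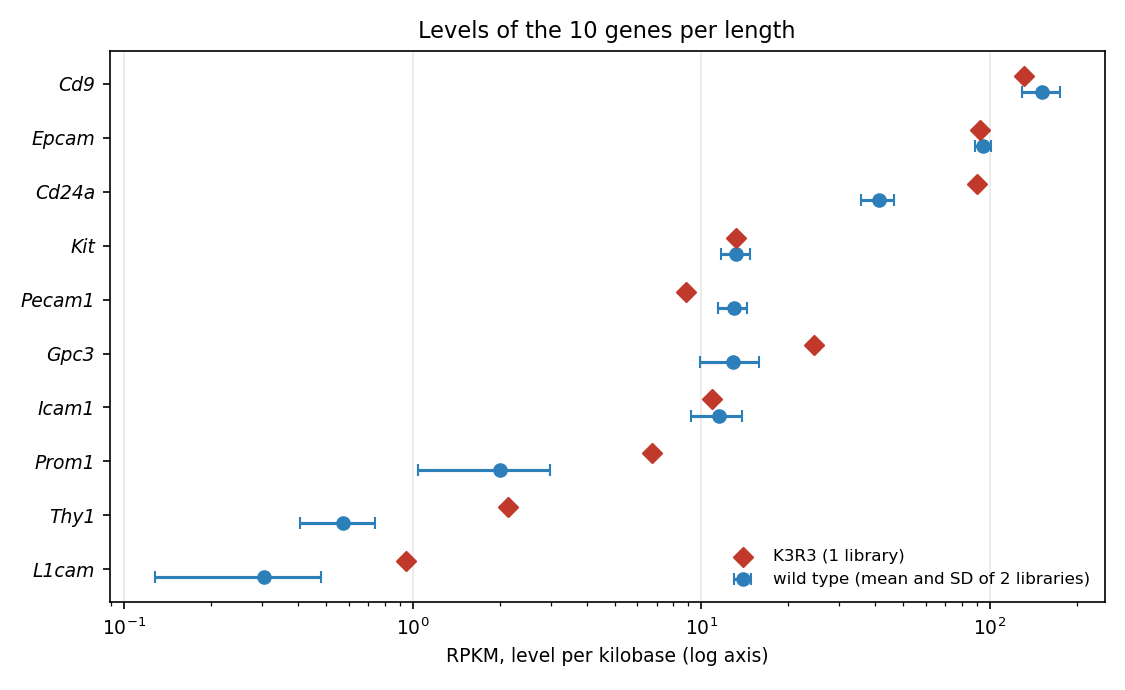
Level of each gene per length, in RPKM on a log axis, in K3R3 (diamonds, 1 library) and wild type (circles, mean with SD of 2 libraries). Cd9 and Epcam are the highest in both groups and L1cam the lowest, and Cd24a in K3R3 (90.4 RPKM) reaches the level of Epcam.

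By the class code in the authors' table, Cd24a, Thy1 and Prom1 were bivalent and the other 7 active. All 3 bivalent members were called higher and lay above both wild-type libraries, against 10.5% and 72.9% of the 1671 bivalent genes tested. Of the 7 active members 2 were called higher (L1cam and Gpc3), against 0.838% of the 10984 active genes tested, and 4 lay below both wild-type libraries, against 37.9%. Bivalent genes as a class had a median log2 change of 0.65 and active genes of -0.04, and both varied with level, so each member was also ranked among tested genes of its class and range of mean CPM. Since the members were chosen with this comparison known, these shares and the ranks below only describe them. Among 24 bivalent genes with a mean of 100 CPM or more, whose median was -0.07, Cd24a had the highest change. Prom1 ranked 8 from the top of 419 bivalent genes at 10 to 100 CPM, where the median was 0.22. Thy1 ranked 57 of 614 bivalent genes at 2 to 10 CPM, a range with a median of 0.67 in which 92 genes were called higher.

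Active members fell on both sides of their class. L1cam ranked 49 from the top of 2173 active genes at 2 to 10 CPM (median 0.15), and Gpc3 ranked 64 from the top of 5312 at 10 to 100 CPM (median -0.05). Pecam1, in the same range as Gpc3, ranked 76 from the bottom. Epcam (-0.16) and Kit (-0.12) were inside the interquartile range of the 2459 active genes at 100 CPM or more (-0.24 to -0.03). Cd9 (-0.34) was below it, and Icam1 (-0.21) was just below the interquartile range at 10 to 100 CPM (-0.20 to 0.09).

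**Figure D4:**
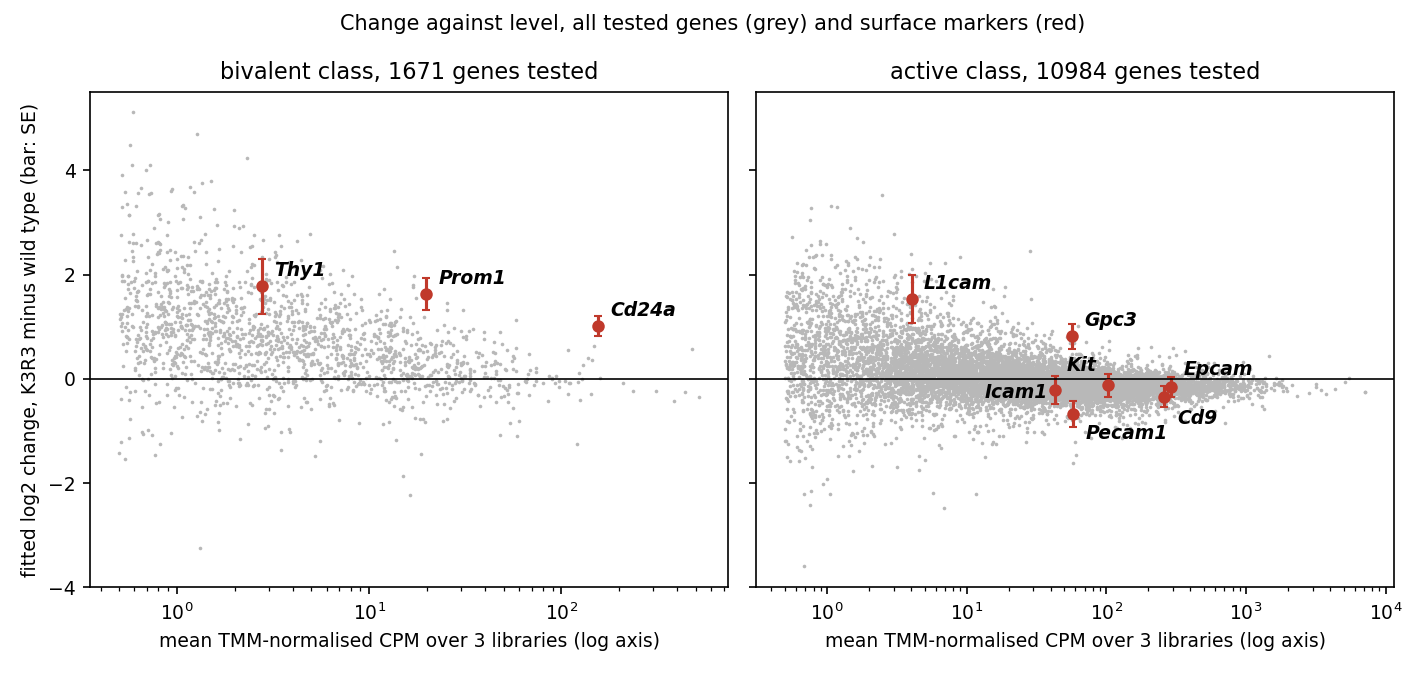
Fitted log2 change of K3R3 minus wild type against mean CPM over the 3 libraries (log axis), for tested bivalent genes (left) and active genes (right) in grey, with the 10 surface markers in red (bars are the SE). Cd24a, at 1.01, is the highest bivalent gene with a mean of at least 100 CPM, and Gpc3 and Pecam1 lie on opposite sides of the active genes of their range.

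Icam1 is a textbook target of NF-kB, and its promoter held the NF-kB-type letters GGAAATTCC, which 0.317% of all promoters hold, in the 30 bases at chr9:21015777-21015806 (plus strand), shown with these letters in capitals.
Icam1 upstream: acttcagtttGGAAATTCCtagatcgcagg
Of 16 NF-kB target genes tested, Icam1 included, 0 were called by edgeR, with 1 higher and 0 lower at an unadjusted p under 0.05; DESeq2 also gave 0 calls. Their median log2 change was 0.36 (0.27 without wild-type library 1 and 0.43 without library 2), against -0.01 over all tested genes. The change of Icam1 was -0.21.

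Relatives of the members followed no single direction. Over all genes tested 2.02% were called higher and 0.542% lower, with a median of -0.01. Of 23 tetraspanins tested, 3 rose and 0 fell, with a median of 0.16 (0.45 without wild-type library 1 and 0.29 without library 2). The risen ones were Tspan12 (log2 2.14), Tspan7 (1.40) and Tspan2 (1.33), whereas Cd81, the close relative of Cd9, had 102 CPM in K3R3 and 144 and 110 CPM in wild type (-0.31, not called). Of 9 glypicans and syndecans, Gpc3 rose and the syndecan Sdc4 fell, to 58.3 CPM in K3R3 against 127 and 81.5 CPM in wild type (-0.84, and -0.48 without wild-type library 1). Gpc4 was not called (-0.49), and the median was 0.14 (0.26 without wild-type library 1 and 0.03 without library 2). Of 25 immunoglobulin-superfamily adhesion genes, L1cam and Thy1 rose and Jam2 (-0.87) and Mcam (-0.84) fell. The calls of Mcam and Sdc4 were lost when scaled to the totals behind the RPKM values, and Cntn3, an adhesion gene, was then called higher. Mcam also lost its call with the likelihood ratio test, and its change was -0.39 without wild-type library 1. The median of these adhesion genes was 0.20, and -0.03 without wild-type library 2.

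Receptors and partners were for the most part not called. Of 10 type III receptor tyrosine kinase genes and ligands, edgeR and DESeq2 called 0, and 0 passed an unadjusted p under 0.05 in either direction. Kitl, the ligand of Kit, stood at 29.5 CPM in K3R3 and 28.4 and 24.5 CPM in wild type (0.16), and Pdgfra, a related receptor, at 37.1 CPM and 37.2 and 49.4 CPM (-0.22). Of 23 ligands and partners tested, 2 rose and 0 fell, against 2.02% and 0.542% of all genes tested. Prom2, the paralogue of Prom1, had 113 counts in K3R3, against 29 and 9 in wild type (log2 2.34, and 1.62 and 3.44 against each wild-type library alone). Ank2, one of the ankyrins that bind the L1 family from within the cell, had 594 counts, against 238 and 247 (a ratio of 2.16 after scaling).

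Other surface markers of ES cells showed 1 call in 20, higher in K3R3. Over all genes tested 2.02% were called higher and 0.542% lower. Fut4, which encodes a fucosyltransferase that can make the SSEA-1 epitope, had 152 counts in K3R3, against 14 and 26 in wild type (log2 2.75). That is 5.84 CPM against 0.67 and 1.05 CPM. The related Fut9 stood far higher, at 97.5 CPM in K3R3 and 107 and 135 CPM in wild type (-0.31, not called). The epitope itself was not measured. Alpl, the alkaline phosphatase of ES cells, had 58.5 CPM in K3R3 and 58.5 and 59.4 CPM in wild type, and Cdh1, E-cadherin, had 572 CPM and 704 and 586 CPM, neither called. Of 22 surface genes of differentiating derivatives, Flt1, a VEGF receptor, rose (1.95) and Mcam fell. Scaled to the totals behind the RPKM values, Cdh2 of these derivative genes and Slc2a3 of the other ES surface genes were called higher too. Jam2 and Tspan7 were the only called genes of these surface lists, members aside, that DESeq2 called as well.

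**Figure D5:**
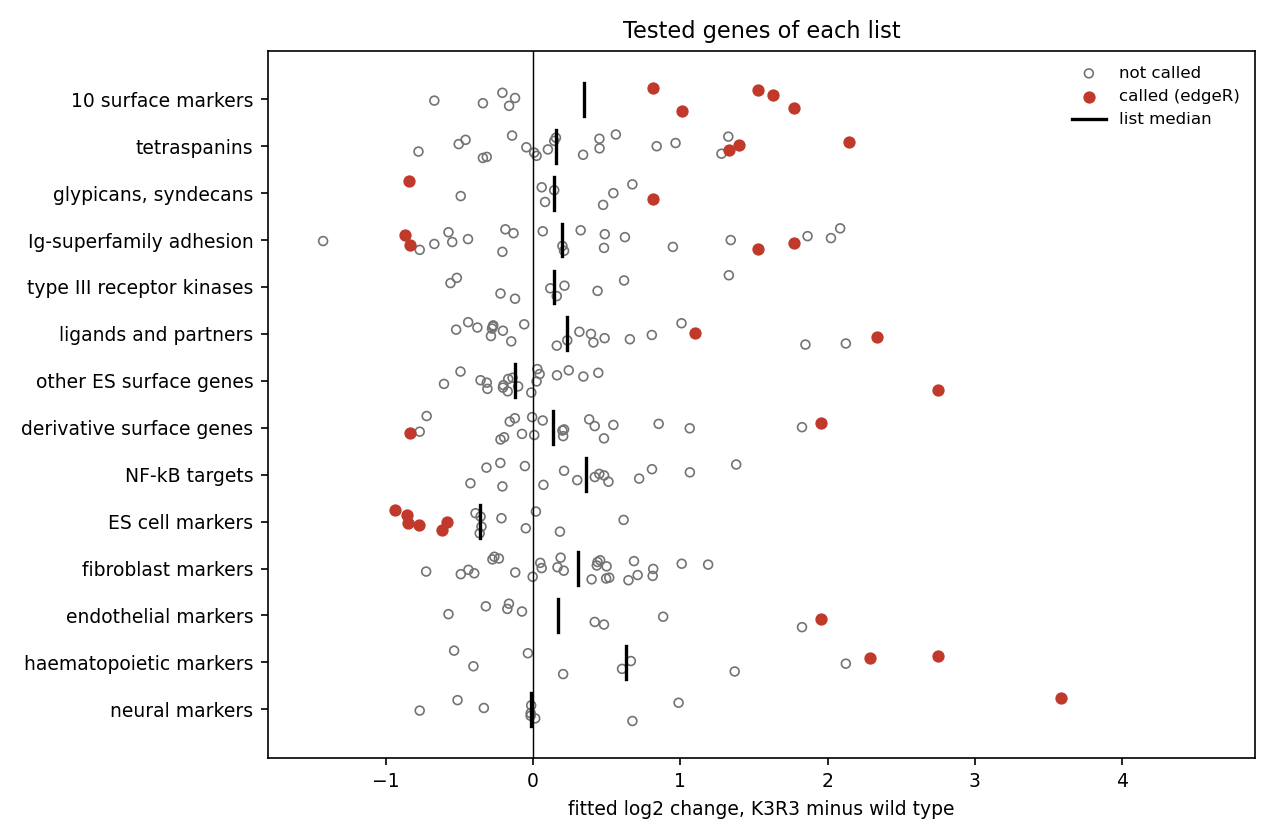
Fitted log2 change of K3R3 minus wild type for every tested gene of each list, called genes filled and others open, with the list median as a bar. The adhesion genes and the glypicans with syndecans have called genes on both sides of 0, and the 6 called ES cell markers lie below 0.

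Several members also mark other cells, so the marker lists of those cells are given beside them. For Thy1, 28 of 30 fibroblast markers were among the table's rows (not Postn or Lum), 19 lay above 0 with a median of 0.30, and edgeR called 0 (5 higher and 2 lower at an unadjusted p under 0.05; DESeq2 called 0). Over all tested genes 48.0% lay above 0, with a median of -0.01, and edgeR called 2.02% higher and 0.542% lower. By class code 8 of the 28 fibroblast markers were bivalent. Scaled to the totals behind the RPKM values, Twist1 was called higher. The summed level of the fibroblast markers was 1661 CPM in K3R3 and 2045 and 1845 CPM in wild type. Of these sums, Fn1 alone held 864 CPM in K3R3 and 1229 and 1197 CPM in wild type. For Pecam1 and Kit, 12 of 17 endothelial markers were present at a summed 39.0 CPM in K3R3 and 31.9 and 27.8 CPM in wild type, with Flt1 alone called. Of 16 haematopoietic markers 10 were present, at 108 CPM in K3R3 and 118 and 96.6 CPM in wild type. Their median log2 change was 0.63, and 7 of the 10 lay above both wild-type libraries, as did 33.9% of all genes tested. By class code 7 of the 10 were bivalent, and bivalent genes had a median of 0.65, with 72.9% above both. Ikzf1 (2.75) and Lmo2 (2.29) rose, of which DESeq2 called Ikzf1, and Ptprc, the pan-leukocyte marker, was not among the rows.

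For Prom1, L1cam and Thy1, 13 of 18 neural markers were present, at 331 CPM in K3R3 and 444 and 356 CPM in wild type. Of these sums, Stmn2 alone held 202 CPM in K3R3 and 341 and 236 CPM in wild type. The median log2 change of the 10 tested was -0.01, with 3 above both wild-type libraries and 3 below both. Zic1 alone was called, with 36 counts in K3R3, against 4 and 1 in wild type (ratio 12.7, counting interval 4.96 to 41.4), a call that was lost with DESeq2. With the totals behind the RPKM values Zic1 was under the filter on low counts and not tested, and Nes was called higher. Of the 15 ES cell markers 6 fell and 0 rose, against 0.542% and 2.02% of all genes tested. Their median was -0.36 (-0.23 without wild-type library 1 and -0.54 without library 2), against -0.01 over all tested genes. By class code 14 of the 15 were active, and active genes with a mean of 100 CPM or more had a median of -0.13. With the totals behind the RPKM values or the likelihood ratio test 4 of the 15 fell, and with DESeq2 1 fell (Tfcp2l1). The steepest were Dnmt3l (-0.94), Fbxo15 (-0.85) and Tfcp2l1 (-0.85), and Dnmt3l rested on wild-type library 1 (209 CPM), since K3R3 (73.6 CPM) and wild-type library 2 (73.8 CPM) were alike. The part that any of these cells had in the members' values was not tested.

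By the GENCODE M21 annotation, 5 of the members overlap a gene on the opposite strand (Cd9, Prom1, Icam1, L1cam and Gpc3). These overlaps are of whole gene spans, introns included, and exons were not compared. The libraries kept strand, per the labels, but no source used here says whether the counting did. Whether reads of a partner were counted for these members is therefore not known. Of all genes that overlap a member, Arhgap4, on the strand of L1cam, was alone among the table's rows, with 85 counts in K3R3 and 56 and 92 in wild type. In the authors' deposited table the log2 column is the wild-type mean over K3R3, and for 10 of 10 members its sign was opposite to the changes given here (Prom1 -1.62, Thy1 -1.76, Pecam1 0.68). All directions given for K3R3 rest on the names of the count columns.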

How the data were processed

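The deposited data are 1 table of genes in rows. Its read counts are whole numbers as deposited; the submitters' processing notes name HTSeq 0.5.4p1 and the build mm9, and aligner, annotation and strand setting are not given in the sources used here, nor is the treatment of reads with several matches. The deposited RPKM values equal count over gene length and over 1 total a library, and the table's counts make up 66.2% to 67.1% of these totals. The smallest count was 1, so genes with a 0 in any library are not among the rows. The authors' own comparison is deposited too, as a fold ratio, a log2 value and a p-value without adjustment (the notes name DESeq 1.10.1). Active and bivalent codes are those of a previous study, per the file headers.

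Counts were tested with edgeR 4.0.16 in R 4.3.3 (TMM over all genes, mean of at least 0.5 CPM over the 3 libraries, quasi-likelihood test, two-sided, Benjamini-Hochberg adjustment at 0.05, 1 residual degree of freedom). Prior degrees of freedom came out infinite, and dispersion thus follows the trend across genes. Differences against 1 wild-type library use log2 CPM with a prior count of 1 and have no test. A chi-square of 24.3 per degree of freedom between the wild-type libraries exceeded sampling noise, and they were kept as 2 samples. Alternatives were RLE factors, other filters, library totals implied by RPKM, DESeq2 1.42.0, the likelihood ratio test and leaving out each wild-type library. The steps were tested on simulated data. Genes named are the 10 members, fixed relatives, and from each list the called genes, at most the 3 with the largest change. Stmn2, Fn1 and Fut9 were named after seeing their levels. Twist1, Nes, Cntn3, Cdh2 and Slc2a3 were named because they were called with the totals behind the RPKM values. A fixed relative is not reported here. Members and lists were chosen with earlier results of these data known, and motifs and ranks after seeing the data.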

Additional observations from a re-analysis of the deposited data

How the results depend on the processing

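The members' 5 calls, all higher, were made with RLE factors, without the low-count filter, at a mean of at least 2 CPM, with library totals implied by RPKM and with the likelihood ratio test. DESeq2 called 2 of the 10 members and 59 genes in all, against 355 with edgeR (78.9% of them higher, and 55.9% with DESeq2); the cause was not tested. With the totals implied by RPKM 515 genes were called, 90.3% of them higher, and the median of all genes was 0.10 instead of -0.01; Kit was then at 0.00081 instead of -0.12. Leaving out wild-type library 1 or 2 left 1 library against 1 and no test. The log2 change was then 0.89 and 1.15 for Cd24a, 2.07 and 1.47 for Thy1, 1.21 and 2.21 for Prom1, 2.26 and 1.00 for L1cam, 0.60 and 1.06 for Gpc3, and 0.02 and -0.41 for Icam1. Among list medians, that of other ES surface genes (-0.12) was 0.0042 with the implied totals and -0.0062 without wild-type library 1, and that of ligands and partners (0.23) was -0.06 at a mean of at least 2 CPM and 0.03 without wild-type library 2. No paired analysis was possible because K3R3 had 1 library and its label carries no replicate number. Depth limits Thy1 and L1cam most, with 30 to 74 counts in the wild-type libraries.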
